A study of Mus musculus with 24 samples.

Results

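The Wnt pathway genes described here are 56 of the 21887 protein-coding mouse genes of the RefSeq annotation (GRCm38.p6, the assembly of mm10): 18 Wnt ligands, 10 Frizzled receptors, 5 co-receptors, 5 regulators of receptor turnover, the ligand-modifying enzyme Porcn, 5 secreted inhibitors, 8 cytoplasmic transducers and 4 nuclear effectors. They were chosen by name and role, with earlier results of these data known, and every one was found in the annotation. A peak was counted at a gene end when its summit lay within 1000 bp of either end of the gene, and in the body when it lay within the gene or 10000 bp on each side. The binding data came from CUT&RUN, in which an antibody directs a nuclease to cut out the DNA around a bound protein. The antibodies were against Sox9, a transcription factor of injured and repairing tubules, and against H3K4me3, a histone mark of active promoters that served as the positive control. All samples came from male mice of 9 to 12 weeks with the genotype Sox9IRES-CreERT2/+:R26RtdT/+, all given tamoxifen at bilateral ischaemia-reperfusion injury. Cre sits at the Sox9 locus in these animals, so tdTomato marks cells with Sox9 activity around the injury and their descendants, and the other cells of the kidney were left out by the sort. Sorted cells of cortex and outer medulla were taken 48 h or 10 days after injury, with 4 biological replicates at each time and no uninjured group among the samples. A pellet of about 100000 cells was fixed in 0.2% PFA, frozen and divided into 3 aliquots, for Sox9, H3K4me3 and input. Times are those of the sample titles, because the samples titled 48 h also carry day 10 in their cell type label.

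Wnt ligands are lipid-modified secreted proteins that bind a Frizzled receptor together with a co-receptor of the Lrp, Ryk or Ror families. In the canonical branch this stops the destruction complex of Axin, Apc and Gsk3b, so that beta-catenin accumulates and acts with Tcf and Lef factors on target genes. In the kidney the pathway is needed for nephron formation, is quiet in most of the adult tubule and returns after injury, where it is known in both repair and fibrosis.

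The 16 antibody libraries had a list of peaks each, 7706 to 85415 peaks for Sox9 and 25811 to 88496 for H3K4me3 on the chromosomes used, and the longest of each antibody was that of 10 d replicate 1. Sequencing depth is unknown. In each list nearly all peak heights were whole multiples of 1 list-specific height, called a step here, and 92.5% or more of the peaks of a list stood at exactly 1 step, so a single peak is a weak observation and recurrence between libraries carries more. What a step corresponds to in reads is not given in the sources used here. Of 12 marker genes of injured or Sox9-lineage tubule, 5 had a Sox9 peak at an end in any library, which filled 9.38% of gene and library pairs where all genes filled 9.98%. For H3K4me3 it was 8 of 12 genes and 15.6% of pairs against 17.3%. Neither antibody had a peak at an end of the injury markers Havcr1 and Vcam1 in any library, so these lists do not set the labelled cells apart by them. Immune markers filled 2.5% of Sox9 and 5% of H3K4me3 pairs, with Ptprc, Adgre1 and Cd3e at 0, and stromal markers 12.5% of both. Podocyte markers filled 4.17% and 25%, endothelial markers 9.38% and 12.5%, and markers of differentiated proximal tubule 7.5% and 17.5%. The part of other cell types in the results was not tested.

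Wnt1, Wnt3a and Wnt11 had a Sox9 peak of 2 steps in 1 library each, just upstream of the start, and these were the only Sox9 peaks above 1 step at any end of the 56 genes. They are 5.36% of the 56, and 4.41% of all genes had such a peak, so this share is near the background. The 250 bases before each of these starts are shown here, 5′ to 3′ along the gene, from RefSeq (GRCm38.p6), together with those of Fzd4 and Fzd5, the Frizzled genes with the start region of most libraries. Capitals mark the bases under the peak named in the next sentences.
Wnt1: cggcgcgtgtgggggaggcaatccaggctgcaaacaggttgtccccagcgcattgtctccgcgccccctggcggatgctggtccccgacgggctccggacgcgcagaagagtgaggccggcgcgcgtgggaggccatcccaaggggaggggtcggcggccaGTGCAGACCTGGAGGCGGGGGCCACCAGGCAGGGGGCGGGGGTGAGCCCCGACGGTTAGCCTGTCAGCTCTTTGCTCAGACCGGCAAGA
Wnt3a: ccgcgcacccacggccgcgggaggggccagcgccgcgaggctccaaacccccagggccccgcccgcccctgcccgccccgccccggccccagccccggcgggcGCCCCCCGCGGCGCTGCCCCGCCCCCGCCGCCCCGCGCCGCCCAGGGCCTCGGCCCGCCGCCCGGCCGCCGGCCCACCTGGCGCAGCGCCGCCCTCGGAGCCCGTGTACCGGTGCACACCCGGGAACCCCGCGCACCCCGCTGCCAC
Wnt11: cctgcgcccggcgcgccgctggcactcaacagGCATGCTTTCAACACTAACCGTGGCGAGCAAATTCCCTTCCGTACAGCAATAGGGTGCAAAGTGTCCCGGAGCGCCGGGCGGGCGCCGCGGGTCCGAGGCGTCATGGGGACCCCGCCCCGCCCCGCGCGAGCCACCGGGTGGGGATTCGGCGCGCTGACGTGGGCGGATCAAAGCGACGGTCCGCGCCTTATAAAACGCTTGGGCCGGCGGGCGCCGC
Fzd4: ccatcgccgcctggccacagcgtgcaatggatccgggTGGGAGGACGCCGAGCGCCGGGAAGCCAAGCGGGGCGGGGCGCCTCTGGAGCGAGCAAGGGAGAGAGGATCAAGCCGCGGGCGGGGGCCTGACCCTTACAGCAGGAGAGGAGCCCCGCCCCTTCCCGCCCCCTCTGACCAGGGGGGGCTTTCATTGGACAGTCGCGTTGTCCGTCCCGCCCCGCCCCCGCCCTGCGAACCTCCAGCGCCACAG
Fzd5: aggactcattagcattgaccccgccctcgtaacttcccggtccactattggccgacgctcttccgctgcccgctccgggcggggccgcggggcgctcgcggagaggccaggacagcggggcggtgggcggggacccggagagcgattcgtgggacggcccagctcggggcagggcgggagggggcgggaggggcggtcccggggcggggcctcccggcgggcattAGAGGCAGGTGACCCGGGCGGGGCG
The Wnt1 stretch is chr15:98789607-98789856 on the plus strand, and the capitals are under the Sox9 peak of 10 d replicate 3, whose summit lay 43 bp upstream of the start. The Wnt3a stretch is chr11:59290752-59291001 on the minus strand, under the Sox9 peak of 48 h replicate 2, with the summit 93 bp upstream. The Wnt11 stretch is chr7:98834862-98835111 on the plus strand, under the Sox9 peak of 10 d replicate 3, with the summit 64 bp upstream of the start that the sequence table gives. The Fzd4 stretch is chr7:89404116-89404365 on the plus strand, under the H3K4me3 peak of 10 d replicate 1, 3 steps high with its summit 20 bp into the gene. The Fzd5 stretch is chr1:64737751-64738000 on the minus strand, under the edge of the H3K4me3 peak of 10 d replicate 3, 2 steps high with its summit 86 bp into the gene. All 5 stretches are rich in G and C, from 70.8% at Wnt11 to 87.6% at Wnt3a, with 23 to 41 CG dinucleotides each.

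More Wnt genes than genes in general had a peak at an end, in every one of the 16 lists. At 10 d, Sox9 peaks lay at an end of 28.6%, 12.5%, 14.3% and 28.6% of the 56 genes in replicates 1 to 4, with a mean of 21.0% ± 8.79 (SD, n = 4) against 12.3% over all genes. At 48 h the Sox9 shares were 5.36%, 23.2%, 14.3% and 10.7%, with a mean of 13.4% ± 7.51 (SD, n = 4) against 7.64%. The 48 h and 10 d shares overlapped, and the highest share of a group was more than 2 times the lowest in both. For H3K4me3 the 10 d shares were 41.1%, 19.6%, 39.3% and 19.6%, with a mean of 29.9% ± 11.9 (SD, n = 4) against 22.1% over all genes. At 48 h the H3K4me3 shares were 28.6%, 21.4%, 17.9% and 12.5%, with a mean of 20.1% ± 6.74 (SD, n = 4) against 12.5%. Outside H3K4me3 at 48 h, the shares of all genes broadly rose and fell with the Wnt shares and the length of the lists. For H3K4me3 at 48 h the shares of all genes were 11.7%, 12.4%, 15.2% and 10.8% in replicates 1 to 4. There the Wnt share was highest in replicate 1 and that of all genes in replicate 3, the longest list of the group. The ratio of the shares within each list is given too. It was 1.77 ± 0.29 for Sox9 at 10 d, 1.68 ± 0.27 for Sox9 at 48 h, 1.44 ± 0.23 for H3K4me3 at 10 d and 1.63 ± 0.61 for H3K4me3 at 48 h (SD, n = 4 each). In single lists it ran from 1.10 in H3K4me3 10 d replicate 1 to 2.44 in H3K4me3 48 h replicate 1. Against all genes of the same length classes the 4 mean ratios were 1.63, 1.53, 1.32 and 1.50. With lists reduced to equal lengths by p, the mean ratios to all genes were 1.03 ± 1.36, 1.11 ± 0.74, 1.05 ± 0.62 and 1.29 ± 0.56 (SD, n = 4 each). These reduced lists had a peak at an end of 1.34%, 2.23%, 7.14% and 8.04% of the Wnt genes, so the Sox9 values rest on few peaks. These are descriptions of a set chosen with results of these data known, and no test was made of them.

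**Figure D1:**
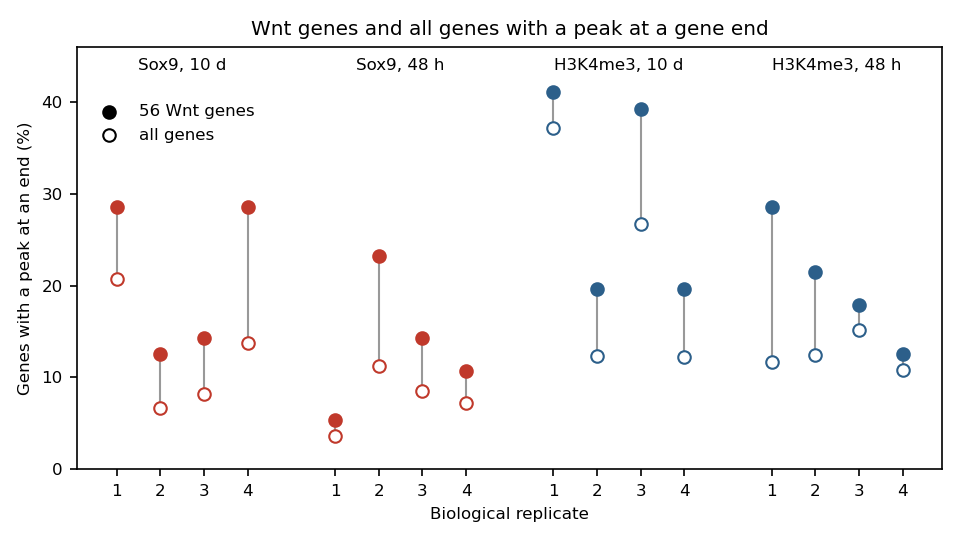
Share of genes with a peak summit within 1000 bp of a gene end (percent, vertical axis) in each of the 16 libraries (horizontal axis, replicates 1 to 4 of each antibody and time). Filled points are the 56 Wnt genes and open points all 21887 genes, joined by a line; the filled point is above the open one in every library, from a ratio of 1.10 to one of 2.44.

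Most Wnt genes had a peak at an end in some library, but few had one in many. A Sox9 peak lay at an end of 46 of the 56 genes in at least 1 of 8 libraries, where 51.5% of all genes had one. Of these 46, 24 had it in at least 2 libraries (20.1% of all genes), 5 in at least 3 (6.32%) and 2 in 4 (1.58%). The 5 were Wnt1, Wnt7a, Fzd4, Fzd8 and Ctnnb1, and the 2 were Fzd4 and Fzd8. For H3K4me3 the counts were 49 genes in at least 1 library (68.3% of all genes), 32 in at least 2 (40.2%), 17 in at least 3 (19.5%) and 10 in at least 4 (7.53%). The 10 were Wnt7b, Wnt9a, Wnt10a, Fzd1, Fzd4, Fzd5, Fzd8, Gsk3b, Dvl2 and Lef1. The median gene of the 56 had a Sox9 peak in 1 library and an H3K4me3 peak in 2, and the median over all genes was 1 for both. Both antibodies marked 42 of the 56 genes in at least 1 library each (41.3% of all genes). Only Sox9 did so at 4, Wnt2, Wnt5a, Ror1 and Axin1 (10.2% of all genes), and only H3K4me3 at 7, Wnt9a, Wnt10b, Fzd10, Ryk, Dkk1, Dkk2 and Gsk3b (27.1%). Porcn, Dkk3 and Axin2 had no peak at an end in any of the 16 libraries (21.5% of all genes).

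**Figure D2:**
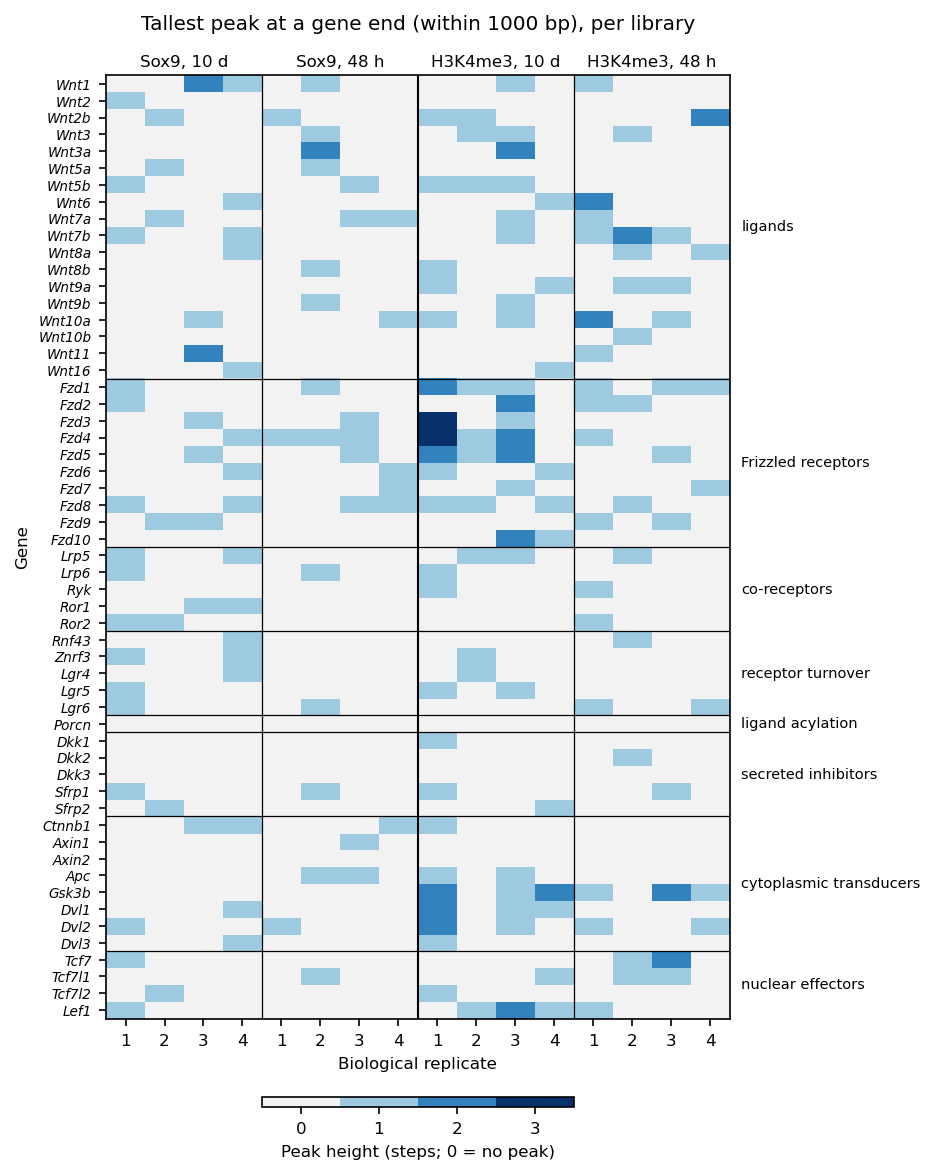
Height in steps of the tallest peak within 1000 bp of a gene end, for each of the 56 Wnt genes (rows, by role) in each of the 16 libraries (columns, replicates 1 to 4 of each antibody and time). Most filled cells are at 1 step; the Sox9 cells at 2 steps are Wnt1, Wnt3a and Wnt11, and the H3K4me3 cells at 3 steps are Fzd3 and Fzd4 in 10 d replicate 1.

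Among the ligands, peaks were spread thinly over many genes. In the 144 gene and library pairs of the 18 ligands, Sox9 peaks at ends filled 25 (17.4%, where all genes gave 9.98%) and H3K4me3 peaks filled 35 (24.3%, where all genes gave 17.3%). For each antibody 16 of the 18 had a peak in some library (51.5% of all genes for Sox9 and 68.3% for H3K4me3). Wnt1, a canonical ligand best known from the developing brain (chr15:98789857-98793830), had Sox9 peaks of 2 steps in 10 d replicate 3 and of 1 step in 10 d replicate 4 and 48 h replicate 2. Its H3K4me3 peaks were of 1 step, in 10 d replicate 3 and 48 h replicate 1. In the pellet of 10 d replicate 3 the Sox9 and H3K4me3 summits of Wnt1 were 45 bp apart. Wnt3a, a canonical ligand, had 1 Sox9 peak, in 48 h replicate 2 at its start, and 1 H3K4me3 peak, in 10 d replicate 3 at its 3′ end, both of 2 steps. Wnt11, a ligand of the non-canonical branch that acts in branching of the ureteric bud, had a Sox9 peak of 2 steps in 10 d replicate 3 and an H3K4me3 peak of 1 step in 48 h replicate 1. So none of the 3 tallest Sox9 peaks recurred at that height in another library.

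Wnt7b, a ligand needed for the renal medulla, and Wnt9a had H3K4me3 peaks in 4 of 8 libraries. At Wnt7b these were 10 d replicate 3 and 48 h replicates 1, 2 and 3, of which 48 h replicate 2 was at 2 steps, and Sox9 peaks of 1 step lay there in 10 d replicates 1 and 4. At Wnt9a the H3K4me3 peaks were in 10 d replicates 1 and 4 and 48 h replicates 2 and 3, all of 1 step, and no Sox9 library had one. Wnt10a had H3K4me3 peaks in 10 d replicates 1 and 3 and 48 h replicates 1 and 3, of 2 steps in 48 h replicate 1, and Sox9 peaks in 10 d replicate 3 and 48 h replicate 4. Its neighbour Wnt6, a ligand made by the ureteric bud, lies 6696 bp away, and had H3K4me3 peaks in 10 d replicate 4 and 48 h replicate 1, the second again of 2 steps, and a Sox9 peak in 10 d replicate 4. Both genes thus had their tallest H3K4me3 peak in the same library, at Wnt6 near the 3′ end. Wnt2b, a ligand of organ outgrowth, had H3K4me3 peaks in 10 d replicates 1 and 2 and 48 h replicate 4, the last of 2 steps and 325 bp upstream of the start, and Sox9 peaks of 1 step in 10 d replicate 2 and 48 h replicate 1. The other 10 ligands had 1-step peaks alone, in 0 to 3 libraries of each antibody, and Wnt7a, with 3 Sox9 libraries (10 d replicate 2 and 48 h replicates 3 and 4), was the one among them with most Sox9 libraries.

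The Frizzled genes, which encode the receptors that ligands bind, had the highest shares of all roles at gene ends with both times pooled. Of their 80 pairs 20 (25%, where all genes gave 9.98%) held a Sox9 peak and 31 (38.8%, where all genes gave 17.3%) one of H3K4me3. By time, co-receptors (35%) and receptor turnover (30%) were above their 25% for Sox9 at 10 d. Nuclear effectors (31.2%) were above their 27.5% for H3K4me3 at 48 h. In the body and 10000 bp on each side, the Frizzled shares were 41.25% for Sox9 and 63.75% for H3K4me3 (37.1% and 53.4% for genes of the same length classes). All 10 genes had an H3K4me3 peak in some library (68.3% of all genes) and 9 a Sox9 peak (51.5% of all genes), and Fzd10 was the one without Sox9. Fzd4, the receptor for Norrin as well as for Wnt ligands (chr7:89404366-89410110), had Sox9 peaks of 1 step in 10 d replicate 4 and in 48 h replicates 1, 2 and 3. Its H3K4me3 peaks were of 3 steps in 10 d replicate 1, 2 steps in replicate 3, 1 step in replicate 2 and 1 step in 48 h replicate 1. Of these, the Sox9 peak of 48 h replicate 3 and the H3K4me3 peak of 10 d replicate 2 lay at the 3′ end. Over both ends, Sox9 was thus more frequent at 48 h (3 of 4 against 1 of 4) and H3K4me3 at 10 d (3 of 4 against 1 of 4). Neither difference passed (two-sided Fisher exact tests of 4 against 4 libraries, p = 0.486 for each). Fzd8 had Sox9 peaks in 10 d replicates 1 and 4 and 48 h replicates 3 and 4, and H3K4me3 peaks in 10 d replicates 1, 2 and 4 and 48 h replicate 2, all of 1 step. In the 10 d replicate 4 pellet its Sox9 and H3K4me3 summits lay 6 bp apart, and in the replicate 1 pellet 62 bp.

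Fzd1 had H3K4me3 peaks in 10 d replicates 1, 2 and 3 and 48 h replicates 1, 3 and 4, of 2 steps in 10 d replicate 1 and 1 step in the others, and Sox9 peaks in 10 d replicate 1 and 48 h replicate 2. At 6 of 8 H3K4me3 libraries it shared the highest count of the 56 genes with Gsk3b. Fzd5 (chr1:64730558-64737750), whose product signals in epithelia, had H3K4me3 peaks of 2 steps in 10 d replicates 1 and 3 and of 1 step in 10 d replicate 2 and 48 h replicate 3, with Sox9 peaks of 1 step in 10 d replicate 3 and 48 h replicate 3. In the 48 h replicate 3 pellet the Sox9 and H3K4me3 summits of Fzd5 were at the same base. Fzd2 had H3K4me3 peaks in 10 d replicate 3 (2 steps) and 48 h replicates 1 and 2, and Sox9 in 10 d replicate 1 alone. Fzd3, which acts in planar cell polarity, had H3K4me3 peaks of 3 steps in 10 d replicate 1 and 1 step in replicate 3, and Sox9 peaks in 10 d replicate 3 and 48 h replicate 3. Fzd10 had H3K4me3 peaks in 10 d replicates 3 (2 steps) and 4. The remaining genes, Fzd6, Fzd7 and Fzd9, had 1-step peaks in 1 or 2 libraries of each antibody.

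All 8 Frizzled H3K4me3 values of 2 or more steps, in 6 genes, came from 10 d replicates 1 and 3, the libraries with the longest lists (88496 and 74368 peaks). Over all genes 13.9% and 4.29% had a peak of 2 or more steps at an end in these libraries, and 0.640% to 1.48% did in the other 6. Of the 56 Wnt genes 12.5% (7 genes) and 10.7% (6 genes) had one there. Over all 8 H3K4me3 libraries 16 of the 56 genes had such a peak (19.8% of all genes), and without these libraries 6 did, Wnt2b, Wnt6, Wnt7b, Wnt10a, Gsk3b and Tcf7 (4.66% of all genes). The part of list length in the Frizzled heights was not tested.

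**Figure D3:**
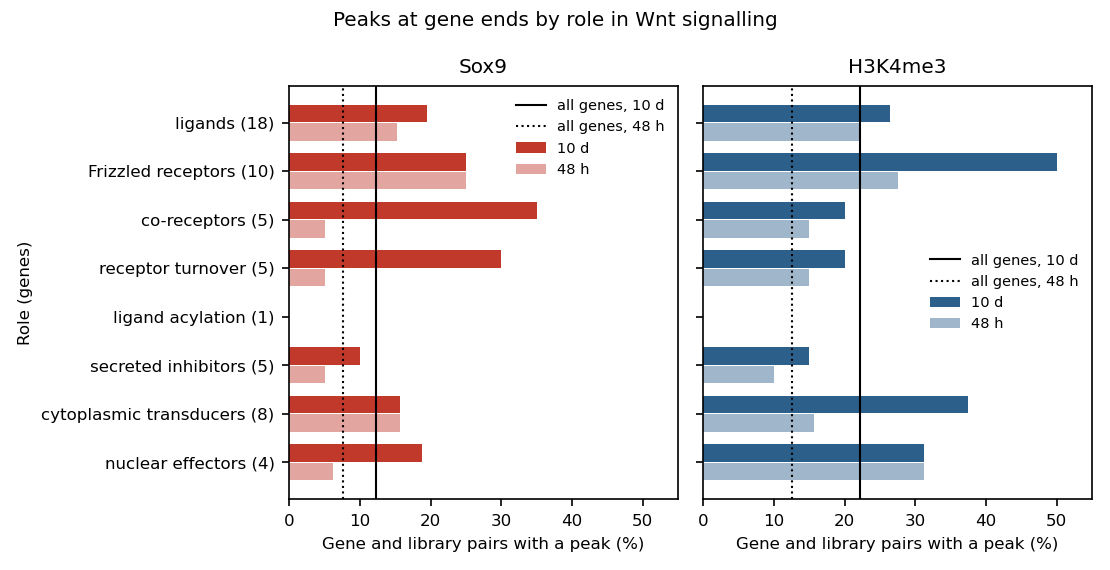
Share of pairs of gene and library with a peak at a gene end (percent, horizontal axis), by role (vertical axis, number of genes in brackets), for Sox9 and H3K4me3 at 10 d (dark bars) and 48 h (light bars). Lines give all genes at 10 d (solid) and 48 h (dotted); Frizzled receptors reach 50% for H3K4me3 at 10 d, and co-receptors 35% for Sox9 at 10 d.

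At the gene ends of co-receptors and of regulators of receptor turnover, more pairs held a Sox9 peak at 10 d than at 48 h. In the body and 10000 bp on each side, Sox9 peaks filled 80% of the co-receptor pairs at both times (78.0% and 62.2% for genes of the same length classes) and 85% and 55% of the turnover pairs (75.7% and 58.8%). For the 5 co-receptors, Sox9 peaks filled 7 of 20 pairs at 10 d (35%, where all genes gave 12.3%) and 1 of 20 at 48 h (5%, where all genes gave 7.64%). H3K4me3 filled 7 of 40 pairs over both times (17.5%, where all genes gave 17.3%). Lrp5, which with Lrp6 forms the canonical co-receptor pair, had Sox9 peaks in 10 d replicates 1 and 4 and H3K4me3 peaks in 10 d replicates 2 and 3 and 48 h replicate 2, so no pellet had both. Ror1 and Ror2, receptors of the Wnt5a branch, each had Sox9 peaks in 2 of 4 libraries at 10 d and 0 of 4 at 48 h, and Lrp6 was the one co-receptor with Sox9 at an end at 48 h. The 5 turnover genes encode the ligases Rnf43 and Znrf3, which remove Frizzled proteins from the surface, and the receptors Lgr4, Lgr5 and Lgr6, which restrain these ligases when bound by R-spondin. Sox9 peaks filled 6 of their 20 pairs at 10 d (30%, where all genes gave 12.3%) and 1 of 20 at 48 h (5%, where all genes gave 7.64%). H3K4me3 filled 4 (20%, under the 22.1% of all genes) and 3 (15%, where all genes gave 12.5%). All 6 turnover pairs with Sox9 at 10 d came from replicates 1 and 4, which had the longest Sox9 lists of that time (85415 and 39691 peaks against 14793 and 17382). The co-receptor pairs with Sox9 at 10 d came from these libraries too, apart from Ror1 in replicate 3 and Ror2 in replicate 2. The part of list length in both roles was not tested. Lgr6 had Sox9 peaks at its 3′ end in 10 d replicate 1 and 48 h replicate 2, and H3K4me3 peaks at its start in 48 h replicates 1 and 4. All were of 1 step.

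Among the roles of the 56 genes, Porcn and the secreted inhibitors had the lowest shares of pairs with a peak at an end, for both antibodies. Porcn, the acyltransferase that ligands need for secretion, had no peak at an end in 16 libraries. In its body and 10000 bp on each side it had no Sox9 peak, the 1 gene of the 56 for which this held (93.8% of all genes had one), and 2 H3K4me3 peaks. Porcn lies on the X chromosome, which is present once in male cells, and the part of this in its lack of peaks was not tested. In the 40 pairs of the 5 secreted inhibitors Sox9 filled 3 (7.5%) and H3K4me3 filled 5 (12.5%), both under the shares of all genes (9.98% and 17.3%). In the body and 10000 bp on each side they were at 42.5% and 65%, near the 46.3% and 64.1% of genes of the same length classes. The low shares at ends did not extend to 11 further extracellular inhibitors outside the 56, which had 18.2% of pairs filled for each antibody. Sfrp1, a decoy receptor for ligands, had both antibodies in 2 libraries each, Sox9 in 10 d replicate 1 and 48 h replicate 2 and H3K4me3 in 10 d replicate 1 and 48 h replicate 3. In the 10 d replicate 1 pellet the summits were 1074 bp apart. Sfrp2 had peaks in 1 library of each antibody at 10 d. Dkk1 and Dkk2, which block Lrp5 and Lrp6, had H3K4me3 peaks in 1 library each and no Sox9 peak, and Dkk3 had none.

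With all libraries, Gsk3b was the 1 gene of the 56 at which the antibodies differed at an unadjusted p under 0.05. It encodes the kinase that marks beta-catenin for destruction (chr16:38089001-38246084, plus strand). It had no Sox9 peak at an end in 8 libraries and H3K4me3 peaks in 10 d replicates 1, 3 and 4 and 48 h replicates 1, 3 and 4, of 2 steps in 10 d replicates 1 and 4 and 48 h replicate 3 and of 1 step in the others. The difference of 6 of 8 against 0 of 8 had p = 0.00699 (two-sided Fisher exact test), but an adjusted p of 1 over 21887 genes (Fisher exact, Benjamini-Hochberg). With the pellet as a block the exact sign-flip permutation test gave p = 0.0312, and 0.0731% of all genes reached p under 0.05 in this direction by that test (Gsk3b alone of the 56). By the Fisher test at p under 0.05, 0.599% of all genes were called in this direction (1 of the 56 Wnt genes), and 0.00457% in the other, with no Wnt gene among them. No gene passed after adjustment, by the Fisher test (132 at unadjusted p) or by the blocked test (17 at unadjusted p). With peaks of 2 or more steps alone, the p of Gsk3b was 0.2 (Fisher exact test). Leaving out 1 library of the 16 in turn kept Gsk3b under 0.05 each time. In 8 of these fits a second gene joined it, which was Fzd1 (without Sox9 10 d replicate 1, Sox9 48 h replicate 2, H3K4me3 10 d replicate 4 or H3K4me3 48 h replicate 2) or Wnt9a (without H3K4me3 10 d replicate 2 or 3, or 48 h replicate 1 or 4). Ryk joined it with a 3000 bp window.

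The other 7 cytoplasmic transducers brought the role to 10 of 64 pairs for Sox9 (15.6%, where all genes gave 9.98%) and 17 of 64 for H3K4me3 (26.6%, where all genes gave 17.3%). Dvl1 and Dvl2 encode Dishevelled proteins, which relay the receptor signal. Dvl1 had H3K4me3 peaks in 10 d replicates 1 (2 steps), 3 and 4 and none at 48 h (two-sided Fisher exact test, p = 0.143). It had 1 Sox9 peak, in 10 d replicate 4, which lay at the 3′ end, as did the H3K4me3 peak of 10 d replicate 3. Dvl2 had H3K4me3 peaks in 10 d replicates 1 (2 steps) and 3 and 48 h replicates 1 and 4, and Sox9 peaks in replicate 1 of both times. At Dvl2 the H3K4me3 peak of 48 h replicate 4 and the 10 d Sox9 peak lay at the 3′ end. Ctnnb1, the gene of beta-catenin, was the transducer with Sox9 peaks in most libraries, of 1 step in 10 d replicates 3 and 4 and 48 h replicate 4, and had 1 H3K4me3 peak, in 10 d replicate 1. Axin1, Apc and Dvl3 had 1-step peaks in 0 to 2 libraries of each antibody. Axin2, a feedback inhibitor and common readout of canonical signalling, had no peak at an end.

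The nuclear effectors had H3K4me3 peaks in 10 of 32 pairs (31.2%, where all genes gave 17.3%) and Sox9 peaks in 4 of 32 (12.5%, where all genes gave 9.98%), and each of the 4 genes had exactly 1 Sox9 peak, of 1 step. Lef1 had H3K4me3 peaks at its start in 10 d replicates 3 and 4, the first of 2 steps with its summit 20 bp upstream. Its H3K4me3 peaks of 10 d replicate 2 and 48 h replicate 1 lay at the 3′ end, as did its Sox9 peak. Tcf7 had H3K4me3 peaks in 48 h replicates 2 and 3 and none at 10 d, of 2 steps in 48 h replicate 3. Tcf7l1 had H3K4me3 peaks in 10 d replicate 4 and 48 h replicates 2 and 3, the last at the 3′ end. In the 48 h replicate 2 pellet its Sox9 summit lay 146 bp from that of H3K4me3. Tcf7l2, the main Tcf of many adult epithelia, had peaks in 1 library of each antibody, both at 10 d, with Sox9 at the 3′ end.

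With all libraries, no Wnt gene was specific to a time. A peak in 4 of 4 libraries of one time and 0 of 4 of the other, the smallest p that 4 against 4 libraries allow (two-sided Fisher exact test, p = 0.0286), occurred at none of the 56 genes with either antibody. Of all genes, 0.0183% met this for Sox9 at 10 d and 0.00457% at 48 h, and 0.224% and 0.0137% for H3K4me3, so a count of 0 among 56 is near this background. These 5 Sox9 and 52 H3K4me3 genes are also the number at unadjusted p under 0.05, and 0 passed after adjustment (Fisher exact, Benjamini-Hochberg). The smallest p of a Wnt gene was 0.143 (two-sided Fisher exact test), for H3K4me3 at Wnt5b and Dvl1, each in 3 of 4 libraries at 10 d and 0 of 4 at 48 h. With the 1 library that lacked the peak left out, each met the rule (Dvl1 without 10 d replicate 2, Wnt5b without 10 d replicate 4), when 225 and 211 genes in all did. Wnt5b in 10 d replicate 2 and Dvl1 in 10 d replicate 3 had the peak at the 3′ end alone. Sox9 peaks at an end occurred at both times at 17 of the 56 genes (13.2% of all genes), at 10 d alone at 21 (26.1%) and at 48 h alone at 8 (12.2%). For H3K4me3 the counts were 21 (27.6%), 19 (30.2%) and 9 (10.5%). The mean log2 ratio of the Wnt share to the share of all genes was 0.88 ± 0.26 at 10 d and 0.86 ± 0.17 at 48 h for Sox9 (SD, n = 4 each), a difference of 0.02. For H3K4me3 it was 0.56 ± 0.27 and 0.70 ± 0.49 (SD, n = 4 each), a difference of -0.14. Both differences are smaller than the spread between libraries.

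Sox9 and H3K4me3 peaks of the same pellet fell on the same Wnt gene in 23 pairs of gene and pellet. These were 29.9% of the 77 pairs with Sox9 and 20.5% of the 112 pairs with H3K4me3, against 28.2% and 16.2% over all genes. In the 56 genes 25% of all pairs had H3K4me3, where all genes gave 17.3%. Beside Fzd5 and Fzd8, the closest pair of summits was at Fzd1, 8 bp apart in 10 d replicate 1, and the widest was at opposite ends of Wnt10a, 12949 bp apart in 10 d replicate 3.

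Peaks at the ends of Wnt genes lay more often at the start than at the 3′ end. Strand was known for 39 of the 56 genes, those matched in the RefSeq promoter table. At these, 11.9% of pairs had a Sox9 peak at the start and 4.17% at the 3′ end (7.84% and 3.14% over 15328 genes with known strand and over 2000 bp long). For H3K4me3 it was 21.5% and 5.13% (14.7% and 5.02%). The start was ahead in 6 of 8 Sox9 and 7 of 8 H3K4me3 libraries for the Wnt genes, and in 8 of 8 of both for all genes. Of 16 Wnt gene and library pairs with an H3K4me3 peak of 2 or more steps at a known end, 14 were at starts and 2 at 3′ ends. Starts here are the outer gene coordinate on the start side. From it, the 41 Sox9 summits at starts had a median of 193 bp into the gene, with 28 downstream. The 79 H3K4me3 summits had a median of 187 bp, with 57 downstream. At Wnt6, Wnt9b, Tcf7 and Wnt5b, among others, the promoter entry gives a start further inside the gene. From that start, some H3K4me3 summits of Tcf7 and Wnt5b counted as downstream lie upstream. The Sox9 summit of 48 h replicate 2 shared by Wnt3 and Wnt9b is counted for both. All 3 Sox9 peaks of 2 steps were within 100 bp upstream, in the stretches of Wnt1, Wnt3a and Wnt11 shown above. Peaks were narrow, with a median width of 145 bp for Sox9 and 146 bp for H3K4me3 at these ends, and the widest was the 601 bp H3K4me3 peak over the Fzd4 start.

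**Figure D4:**
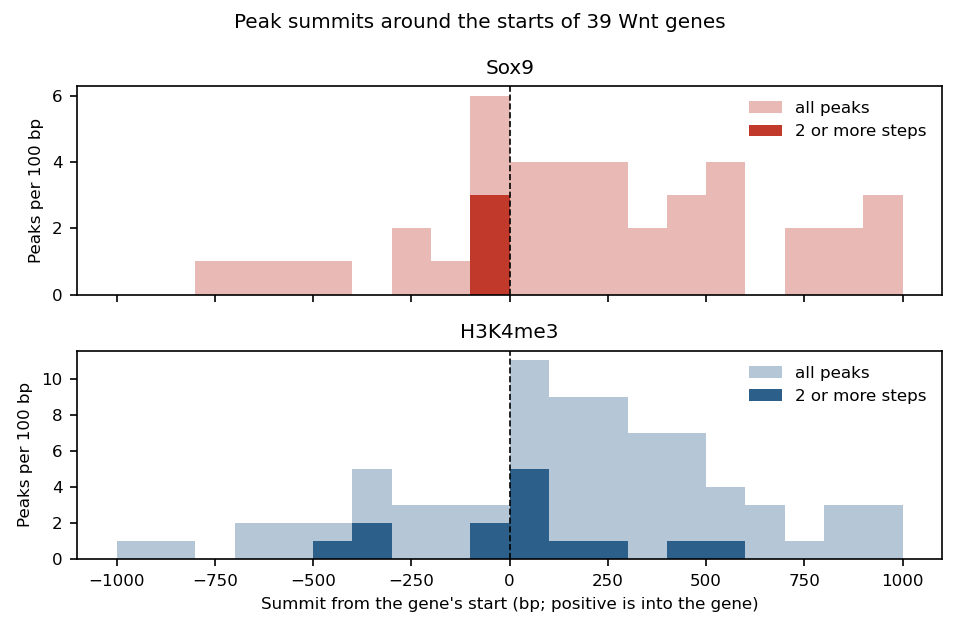
Distance of peak summits from the start of the gene (bp, horizontal axis, positive into the gene) for 39 Wnt genes of known strand, as peaks per 100 bp (vertical axis), pooled over the 8 libraries of each antibody. The start is the outer gene coordinate on the start side, which at some genes is not the start of the promoter entry. Light bars are all peaks and dark bars those of 2 or more steps; 28 of 41 Sox9 and 57 of 79 H3K4me3 summits lie downstream of the start, and the 3 tall Sox9 peaks lie just upstream.

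Sox and Tcf motif letters were about as frequent in the Wnt promoters as in others. In windows from 250 bases before to 50 after the start, ACAATG or its reverse CATTGT was in 4 of 39 Wnt promoters (10.3%, against 11.2% of 17492 promoters). ACAAAG or CTTTGT was in 8 (20.5%, against 16.8%), and CTTTGA or TCAAAG, the core bound by Tcf and Lef, in 5 (12.8%, against 14.9%). Both strands were searched, and ACAAAG and TCAAAG differ in their first letter, so no match counts for both. Of the stretches shown, Wnt1 has CATTGT 200 bases before the start, outside the Sox9 peak marked there, and Wnt11 has TCAAAG 50 bases before it, inside the marked peak. Wnt3a, Fzd4 and Fzd5 have none of these letters in their 250 bases. The Wnt promoters were richer in G and C, with a median of 70% against 56.3%, and held a median of 30 CG dinucleotides against 13. A comparison of peak shares at matched base composition is void, since 69.6% of the 56 genes have a promoter entry, so the part of base composition in the shares at gene ends was not tested.

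In the wider window of the body and 10000 bp on each side the excess was smaller. A Sox9 peak lay there at 68.8% ± 17.8 of the 56 genes at 10 d and at 50.4% ± 12.7 at 48 h (SD, n = 4 each), against 59.1% and 42.0% of all genes of the same length classes. For H3K4me3 it was 83.0% ± 11.4 and 71.9% ± 6.74 (SD, n = 4 each), against 73.8% and 61.4%. The ratios were 1.20 ± 0.18, 1.22 ± 0.11, 1.13 ± 0.07 and 1.17 ± 0.05 (SD, n = 4 each), above 1 in 15 of 16 libraries and 0.97 in Sox9 10 d replicate 1. Long genes held most peaks. The rank correlation of gene length with the number of body peaks over 8 libraries was 0.77 for Sox9 and 0.72 for H3K4me3, across the 56 genes of the same libraries. Ror1, of 349016 bp, had 33 Sox9 and 56 H3K4me3 peaks, and Ror2, of 176808 bp, had 32 and 51. Wnt7b, of 46385 bp, had 23 Sox9 and 34 H3K4me3 peaks, or 34.6 and 51.2 for each 100 kb of window, where the median of the 56 genes was 15.5 and 24.6 and that of all genes 10.7 and 18.0. Wnt10b had more Sox9 peaks for each 100 kb (36.4), and Dvl2, Wnt10a, Wnt1 and Dvl3 more H3K4me3 peaks (64.4, 59.1, 58.4 and 56.7). All 8 Sox9 libraries had a peak in the windows of Ror1, Ror2, Lgr6 and Tcf7l1 (3.48% of all genes, not matched for length), and all 8 H3K4me3 libraries did at 16 of the 56 genes (12.8%). In at least 1 library an H3K4me3 peak lay in the window of each of the 56 (96.7% of all genes).

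**Figure D5:**
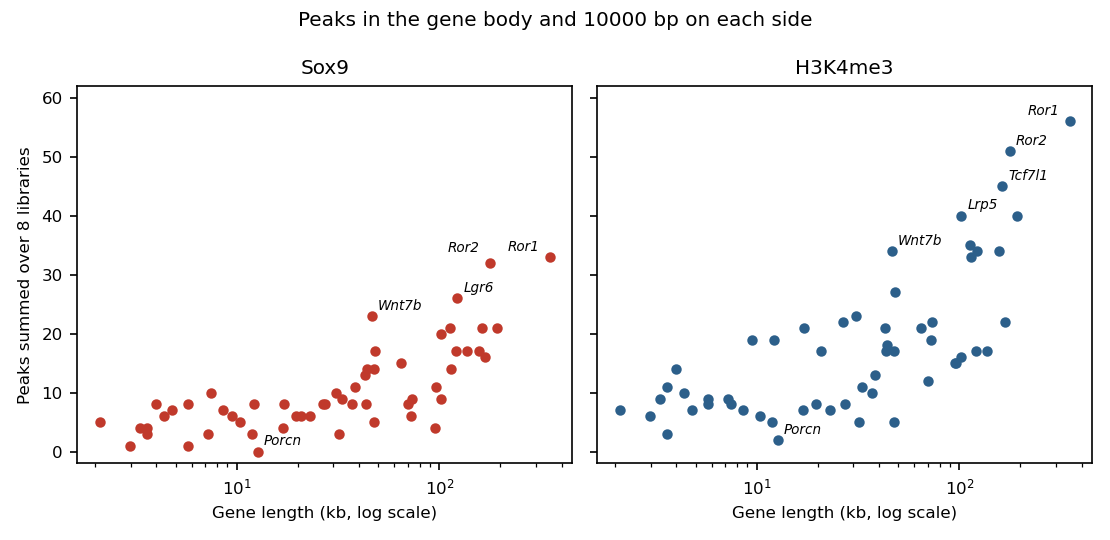
Peaks in the gene body and 10000 bp on each side, summed over the 8 libraries of an antibody (vertical axis), against gene length in kb (horizontal axis, log scale), each point 1 of the 56 Wnt genes. Counts rise with length, to 33 Sox9 and 56 H3K4me3 peaks at Ror1; Wnt7b has 23 and 34, and Porcn has none for Sox9.

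A few regions in or near Wnt genes held peaks from libraries of both antibodies. When the peaks of all 16 lists were merged, 92.7% of 520412 regions came from a single library. Peaks were joined in chains of overlaps, so the peaks of a region need not all share a base. At Fzd4, for example, the Sox9 peaks of 48 h replicates 1 and 2 do not overlap. In the windows of 12 of the 56 genes (21.4%) there was a region with peaks in at least 4 libraries, against 12.8% of all genes and 15.3% of genes of the same length classes. The region of most libraries, at 7 of 16, lay inside Ror2 near its 3′ end (chr13:53111155-53111656), with Sox9 peaks in 10 d replicates 1 and 2 and 48 h replicate 1 and H3K4me3 peaks in 10 d replicates 1, 2 and 3 and 48 h replicate 2. It was of 2 steps in H3K4me3 10 d replicate 1 and of 1 step in the others. The regions over the starts of Fzd4 (chr7:89404033-89405076) and Fzd5 (chr1:64737360-64737897) had peaks in 6 libraries each, 3 Sox9 and 3 H3K4me3 at Fzd4 and 2 and 4 at Fzd5. Regions of 5 libraries lay inside Fzd8 (3 Sox9, 2 H3K4me3), inside Lgr6 (chr1:134987596-134987987, 1 and 4) and inside Axin2 (chr11:108921731-108922273, 2 and 3). The Axin2 region lay 1653 bp from the nearest annotated start of the gene and had a Sox9 peak of 2 steps in 10 d replicate 1, although Axin2 had no peak within 1000 bp of its ends. Regions of 4 libraries lay at Wnt7b, Fzd2, Gsk3b, in second places of Ror2 and Lgr6, at 2 places in Dvl3 and at 2 between or in Wnt6 and Wnt10a, which share their windows. That of Gsk3b (chr16:38088255-38088667) lay 540 bp upstream of the start and had 4 H3K4me3 peaks and no Sox9 peak. The Dvl3 region at chr16:20522329-20522832 likewise had H3K4me3 peaks in 4 libraries and no Sox9 peak. Pairs of neighbouring genes share peaks in these windows: Wnt6 with Wnt10a, Wnt1 with Wnt10b (11650 bp apart), Wnt3a with Wnt9a (16097 bp apart) and Wnt3 with Wnt9b, which overlap by 1098 bp.

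Another 53 genes of the pathway, from a list of ligand release, other extracellular inhibitors, other cytoplasmic proteins and other nuclear proteins and targets, were counted in the same way. A Sox9 peak lay at an end in 20.0% of their pairs (17.2% for the 56) and an H3K4me3 peak in 26.2% (25%). At 48 h the Sox9 share was 19.3% (13.4% for the 56). Sox9 was present in at least 3 of 8 libraries at 13 of the 53 genes (24.5%, against 8.93% of the 56 and 6.32% of all genes), and peaks of 2 or more steps at 8 (15.1%, against 5.36% and 4.41%). These differences were not tested. In at least 4 of 8 libraries Sox9 was present at Wls, the carrier of ligands to the surface (7 libraries), and at Celsr1, Pygo1 and Tle1 (4 each). H3K4me3 was present in at least 4 at Wls (8 libraries), Ctbp1 and Nfatc1 (5 each), and Csnk1d, Tnks, Nkd1 and Prickle1 (4 each). No gene of this list was specific to a time, and at Nfatc1, with no Sox9 peak and H3K4me3 peaks in 5 libraries, the antibodies differed at unadjusted p alone (two-sided Fisher exact test, p = 0.0256, adjusted p = 1). None of the 56 genes reached the counts of Wls.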

How the data were processed

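Peaks of 16 CUT&RUN libraries (Sox9 and H3K4me3, 4 replicates at 10 days and 48 h after injury) were analysed, and the inputs entered only through the authors' calls. Each list was called on 1 library against the input of its pellet, per the file headers (peak names). The tools named in the submitters' processing notes are MACS3, Bowtie, Bowtie2 and Partek 10, with mm10 as the build. Duplicates, scaling and the peak threshold are not given in the sources used here. The deposited fold is the authors' ratio of antibody over background at the summit, and the deposited p and q are −log10 values. Both were used within a list alone, to filter peaks and to solve peak heights, assuming 1 added to both terms of the fold and a Poisson p. Heights were then within 0.05 of a whole multiple of a list-specific step for 99.98% of peaks or more. In replicate 1 of 48 h of each antibody 47.3% (Sox9) and 44.5% (H3K4me3) of peaks were solved singly, and for the others the solution nearest a whole multiple was taken.

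Genes were the 21887 protein-coding RefSeq genes of GRCm38.p6 on chromosomes 1 to 19, X and Y, with peak presence by summit. Presence was tested per gene over all genes with two-sided Fisher exact tests (Benjamini-Hochberg), 4 against 4 libraries between times and 8 against 8 between antibodies. Same-length values weight all genes of 20 length classes by their Wnt genes. The 56 genes, the other lists and the tests were chosen with earlier results of these data known. Genes described library by library had a peak at an end in at least 4 of 8 libraries of an antibody, a peak of 2 or more steps, an unadjusted p under 0.05 or most libraries in their role. Regions described had peaks in at least 4 of 16 libraries, and other pathway genes in at least 4 of 8. Ctnnb1 and the genes given by count alone were added after their values were seen.

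Sox9 and H3K4me3 of a pellet were paired on the labels. Their deviations correlated between -0.0062 and 0.0195, and the pellet's own partner was the best match in 1 of 8, so the pairing rests on the labels alone. The replicates are labelled biological. At most 13 peaks were identical between 2 lists, so no list was a copy. Alternatives were a 3000 bp window, any overlap, −log10 q of at least 5, 2 or more steps, equal list lengths by p, replicate blocks and leaving out libraries; the same-length comparison at ends and the removal of long lists were added after the data were seen. Scripts were tested on simulated data. Tests ran in SciPy 1.17.1 and NumPy 2.4.6, tables in pandas 2.3.3 and plots in Matplotlib 3.10.9, under Python 3.11.15.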

Additional observations from a re-analysis of the deposited data

How the results depend on the processing

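With −log10 q of at least 5 all results kept their direction and size. Genes called between times were 5 for Sox9, and 42 with a 3000 bp window, 8 with any overlap, 0 with 2 or more steps and 0 with a replicate block by number. For H3K4me3 they were 52, and 115 with the 3000 bp window, 0 with 2 or more steps and 0 with the block. The numbers do not pair the times by the labels, and the blocked test cannot go below p = 0.125 (exact sign-flip permutation). Genes called between antibodies were 132, and 384 with the 3000 bp window (Ryk and Gsk3b of the 56), 2 with 2 or more steps and 17 with the pellet as replicate block. Leaving out each library in turn gave 9 to 61 (Sox9 times), 74 to 225 (H3K4me3 times) and 153 to 377 (antibodies), where fewer libraries make the rule easier to meet.

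The ratio of Wnt genes to all genes at ends moved for Sox9 at 10 d to 1.44 with 3000 bp and 1.03 with equal list lengths, for Sox9 at 48 h to 0.69 with 2 or more steps, resting on 1 gene, and 1.11 with equal lengths, for H3K4me3 at 10 d to 1.05 with equal lengths, and for H3K4me3 at 48 h to 2.97 with 2 or more steps. Leaving out libraries gave 1.67 to 1.90, 1.56 to 1.75, 1.39 to 1.56 and 1.35 to 1.78. Equal lengths by p rank 1-step peaks by low background. For Sox9 they left a peak at an end of 1.34% of the Wnt genes at 10 d and 2.23% at 48 h. In the body the ratio moved for Sox9 at 10 d to 1.86 with 2 or more steps, for Sox9 at 48 h to 0.27 with these and 0.97 with equal lengths, for H3K4me3 at 10 d to 1.42 with 2 or more steps, and for H3K4me3 at 48 h to 1.24 with 3000 bp, 1.27 with 2 or more steps and 1.06 with equal lengths. Leaving out libraries gave 1.13 to 1.27, 1.18 to 1.27, 1.11 to 1.16 and 1.15 to 1.19.

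The log2 difference between times turned sign. For Sox9 it was -0.082 with 3000 bp, -0.073 with any overlap, -1.03 with 2 or more steps and -0.31 with equal lengths, and -0.054 to 0.142 leaving out libraries (-0.024 without 10 d replicate 2, -0.054 without 10 d replicate 4 and -0.037 without 48 h replicate 4). For H3K4me3 it was 0.081 with 3000 bp and -1.07 with 2 or more steps, and -0.27 to 0.074 leaving out libraries (0.074 without 48 h replicate 1). With 2 or more steps the Sox9 value rested on 2 pairs of Wnt gene and library at 10 d and 1 at 48 h. In Sox9 libraries without such a Wnt gene, the log2 ratio came from the 0.5 added to counts and the share of all genes. That value therefore says little about Wnt genes. The replicate block by number left the differences for Sox9 and H3K4me3 at 0.02 and -0.14. Causes of these changes were not tested.

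Without 10 d replicate 1 of the antibody, 41 of the 56 genes had a Sox9 peak at an end in some library (41.3% of all genes) and 43 an H3K4me3 peak (58.6%). Library counts of the 23 genes described library by library stayed within 1.5 times in 46 of 46 cases with the q filter and with any overlap, 34 with 3000 bp, 12 with equal lengths and 6 with 2 or more steps. Depth is unknown, so an absent peak does not show absent binding.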

Other observations

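Lgr5, the R-spondin receptor known as a stem cell marker, held a region inside the gene with H3K4me3 peaks in 48 h libraries alone (chr10:115573103-115573602). It had 2 steps in 48 h replicates 1 and 2 and 1 step in replicate 4, and no peak in 48 h replicate 3, in the 10 d H3K4me3 libraries or in any Sox9 library. The region lay outside the rule for described regions and was chosen after its values were seen, with no test.

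Upstream of Dvl2, a region 8882 bp before the start (chr11:69991515-69991906) had an H3K4me3 peak of 5 steps in 10 d replicate 1 and of 1 step in 10 d replicate 2 and 48 h replicate 1, and no Sox9 peak. Between Wnt9b and Wnt3, whose ends overlap, a region inside Wnt9b (chr11:103766184-103766574) had Sox9 peaks of 1 step in 10 d replicates 1 and 4 and 48 h replicate 4 and no H3K4me3 peak. Both were chosen after their values were seen.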
